A study of Mus musculus with 12 samples.

Results

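The Zfp genes of the mouse are named for zinc fingers, and the 268 described here are the protein-coding genes whose symbol is Zfp followed only by digits and that collected at least 500 counts over the 12 libraries of the study. They come from 365 protein-coding genes with such a symbol and from 52550 genes in the count table. The count total is itself a measured value that chose the members: totals ran from 502 to 62644 with a median of 2058, and 144 of the 268 reach 500 counts without the immunoprecipitates. Just inside the limit lie Zfp641 with 502 counts, Zfp943 with 507 and Zfp764 with 527, and just outside lie Zfp964 with 495, Zfp449 with 493 and Zfp937 with 488. Because IP counts helped to choose the members, the counts and medians over all members below are descriptions, set beside protein-coding genes that met the same minimum.

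The study was RNA immunoprecipitation with sequencing (RIP-seq), in which an antibody pulls down a protein together with the RNA bound to it and the recovered RNA is sequenced beside the input RNA. Every library came from wild-type C57BL/6 mice. Ythdf1 IP, Ythdf2 IP and input were each sequenced as 2 replicates from dissociated retinas at postnatal day 0 and from dissociated cortices at embryonic day 12.5, so that tissue and age differ together. The labels do not say whether replicates came from separate animals, pools or litters, and p-values then measure only the spread between these libraries. No library made with an unrelated antibody was analysed here, so the input is the only baseline. In whole-tissue RNA, fewer cells of a type and less RNA per cell cannot be told apart.

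Most Zfp genes encode C2H2 zinc finger proteins, in which short finger modules, each folded around a zinc ion, follow each other in tandem and read DNA. Many also carry a KRAB domain, which recruits the co-repressor Trim28 and the histone methyltransferase Setdb1 and silences transposable elements and some genes. Ythdf1 and Ythdf2 are readers of N6-methyladenosine (m6A), a modified base in mRNA, and act in the cytoplasm. Ythdf1 is best known for promoting translation of the bound mRNA and Ythdf2 for promoting its decay.

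In the longest coding transcript of each gene (GENCODE M21), the 268 proteins had a median of 11 matches to the C2H2 pattern, with a range of 0 to 37. At least 3 matches were found in 244 proteins and none in 7, and 113 held a strict match to the KRAB A-box. Chromosome 7 carried 73 members and chromosome 17 carried 27. The fingers are joined by a conserved linker, and the letters GAGAAACC, searched on the sense strand, code for part of it. They occur in the coding part of 59.0% of the 268 members, against 6.16% of the other protein-coding genes with at least 500 counts and 6.21% of 21866 protein-coding transcripts in all. Of the 626 matches in members, 612 (97.8%) lie in the linker's reading frame. The first such coding match with 10 bases on either side is shown for 3 members that were higher in the retina Ythdf1 IP and for Zfp945, which was lower, with the searched letters in capitals (GRCm38, sense strand of each gene, coding exons). They lie at chr7:7115776-7115803 on the minus strand for Zfp954, chr7:27911828-27911855 on the minus strand for Zfp974, chr15:75618692-75618719 on the plus strand for Zfp41 and chr17:22851532-22851559 on the minus strand for Zfp945.
Zfp954: gcacaccggaGAGAAACCttataggtgc
Zfp974: tcacagtggtGAGAAACCtttcgagtgt
Zfp41: gcacactggaGAGAAACCttatggctgt
Zfp945: tcatacaggaGAGAAACCttataaatgt

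Across the 268 members the rank correlation between the number of linker matches and the log2 fold change was -0.22 for retina Ythdf1 and -0.24 for retina Ythdf2, and 0.20 for cortex Ythdf1 and 0.25 for cortex Ythdf2. Beyond such short runs, 140 members held no 50-base window that also occurs in another gene. In 16 members at least 20% of the windows were shared, and leaving these out gave 87 of 252 members called higher and 13 called lower in the retina Ythdf1 IP.

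A second short motif bears on the proteins that were precipitated. GGACT is the core of the consensus at which m6A is most often found. It was present on the sense strand in 93.3% of the members' transcripts and 92.6% of those of the other protein-coding genes with at least 500 counts, and in 86.8% of all protein-coding transcripts. Its density was lower in members, with a median of 0.851 per kb against 1.05 per kb. Windows around the first match that lies with its flanks in 1 coding exon are shown for Zfp12 and Zfp46, the members with large retina differences, and for Zfp574 and Zfp629, which were higher in the cortex IPs. They lie at chr5:143244661-143244685 (plus strand), chr4:136290601-136290625 (plus), chr7:25079931-25079955 (plus) and chr7:127610538-127610562 (minus), in that order. Capitals mark GGACT.
Zfp12: atccatcagaGGACTcacacaggag
Zfp46: cagcaccagcGGACTcacacgggcg
Zfp574: atgagtgtgtGGACTgtaaggctct
Zfp629: cctgagtgtaGGACTggccgtgggg

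The windows of Zfp12 and Zfp46 share the run GGACTCACAC from the motif on. It occurs in 27 of the 268 members (10.1%) and in 69 of the 21598 other protein-coding transcripts (0.319%). Among the 27 members with it, 8 were called higher in the retina Ythdf1 IP, with a median log2 fold change of 1.15. Among the 241 without it, 81 were called higher, with a median of 0.76. The share called higher was 33.2% over all members and 15.3% over all genes tested. The medians with and without the run were 0.51 and 0.22 in the retina Ythdf2 IP, -0.21 and 0.38 in the cortex Ythdf1 IP and 0.65 and 0.73 in the cortex Ythdf2 IP. Of members with and without it, 3 and 23 were called higher in the retina Ythdf2 IP, 0 and 8 in the cortex Ythdf1 IP and 1 and 19 in the cortex Ythdf2 IP. In these 3 comparisons the shares were 9.70%, 2.99% and 7.46% over all members and 6.63%, 1.76% and 2.88% over all genes tested. The run was looked for after the windows had been seen. It ends in CACAC, letters that also stand shortly before the linker letters in the windows of Zfp954 and Zfp41. In the windows CACAC is followed by aggag in Zfp12 and gggcg in Zfp46, and by cggaG in Zfp954 and tggaG in Zfp41. In Zfp954 and Zfp41 that last G opens the linker letters. Whether the run lies in the repeated finger and linker sequence across the 27 members was not tested. A match is a description of sequence and no evidence of methylation.

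Library totals ran from 19530226 to 40515980 counts. Protein-coding genes took 8.37% to 41.1% of them in 11 libraries and 4.65% in the twelfth, labelled as replicate 1 of the cortex input. There the mature brain list had a summed 15242 CPM of protein-coding counts, against 66.2 to 258 in the other 11, while Emx1 and Neurog2 of the embryonic cortex list were at 0. It was left out, and the cortex comparisons rest on a single input library, which was assumed to vary like the other groups. The retina list summed to 2502 to 3172 CPM in retina libraries and 232 to 507 in the remaining cortex libraries, and the embryonic cortex list to 857 to 1044 and 2638 to 4747. Emx1 was at 0 in all 6 retina libraries.

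On the FPKM scale, which divides by gene length, the Zfp genes were lowly expressed. The median over the 268 members was 0.275 and 0.564 FPKM in the retina inputs and 1.89 FPKM in the cortex input. The highest were Zfp362 in retina, with 11.8 and 7.47 FPKM, and Zfp146 in cortex, with 44.7 FPKM. As a share of protein-coding counts, the members together took 1.96% and 2.08% in the retina Ythdf1 IPs and 1.72% and 1.65% in the retina Ythdf2 IPs, against 0.831% and 1.05% in the retina inputs. In cortex they took 1.99% and 1.39% for Ythdf1 IP and 2.07% and 2.75% for Ythdf2 IP, against 1.33% for input. Each IP library thus lay above the input of its tissue.

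In the retina, 89 Zfp genes were called higher in the Ythdf1 IP than in the input and 13 lower, by edgeR's quasi-likelihood test at an adjusted p under 0.05. Over all 18380 genes tested, 15.3% were called higher and 15.2% lower. Members were called higher in 33.2% and lower in 4.85%, against 24.2% and 18.4% of protein-coding genes with at least 500 counts. The median log2 fold change of the members was 0.81, against 0.20 for those genes. Fold changes below are on the log2 scale, IP over input, with their standard error (SE), and levels are TMM-normalised CPM, the counts scaled to a common library size.

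**Figure D1:**
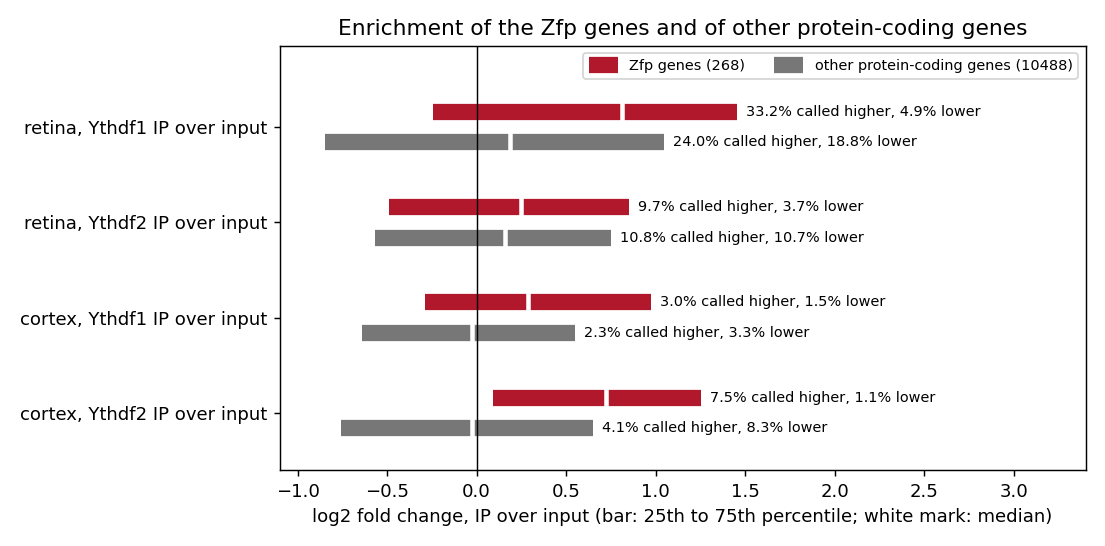
Log2 fold change of IP over input for the 268 Zfp genes (red) and the 10488 other protein-coding genes with at least 500 counts (grey), in 4 comparisons. Bars span the 25th to the 75th percentile, white marks are medians, and the text gives the percent called. In retina Ythdf1 IP the members' median of 0.81 lies above the 0.19 of the other genes, and in cortex Ythdf2 IP 0.72 lies above -0.03.

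Zfp954, a KRAB zinc finger gene at chr7:7114690-7121488, had the largest rise. It had 5.66 and 6.30 CPM in the retina Ythdf1 IPs and 2.48 and 3.66 CPM in the Ythdf2 IPs, against 0.555 and 0.241 CPM in the inputs, where these levels are 14 and 6 counts. Every IP library lay above both inputs. The log2 fold change was 3.89 ± 0.57 (SE, adjusted p = 0.000323) for Ythdf1 and 2.93 ± 0.57 (adjusted p = 0.00383) for Ythdf2. Both comparisons use the same 2 inputs, so their values are given side by side and not as separate support.

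Zfp12, with 15 finger matches at chr5:143235163-143248834, had 46.2 and 40.1 CPM in the Ythdf1 IPs and 17.8 and 23.5 CPM in the Ythdf2 IPs, against 1.59 and 5.99 CPM in the inputs. The groups did not overlap, although the inputs themselves differed. Its log2 fold changes were 3.51 ± 0.62 (adjusted p = 0.00109) and 2.45 ± 0.60 (adjusted p = 0.0147). The Ythdf2 call was lost without retina Ythdf2 IP replicate 1 (2.63, adjusted p = 0.0565), without replicate 2 (2.24, adjusted p = 0.0885) and without retina input replicate 1 (1.78, adjusted p = 0.0855). Zfp974, with 21 finger matches, had 3.16 and 2.76 CPM in the Ythdf1 IPs and 1.56 and 1.98 CPM in the Ythdf2 IPs, against 0.119 and 0.322 CPM in the inputs. Its input level rests on 3 and 8 counts, 13.9% of its windows are shared with other genes, and Gm26891 overlaps it on the opposite strand. Its log2 fold changes were 3.73 ± 0.54 (adjusted p = 0.000288) and 2.99 ± 0.55 (adjusted p = 0.0026).

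Zfp41 was among the more abundant of the rising genes. It had 83.5 and 81.8 CPM in the Ythdf1 IPs and 41.7 and 36.003 CPM in the Ythdf2 IPs, against 14.9 and 12.7 CPM in the inputs. Its 3 retina groups did not overlap, and it rose by 2.58 ± 0.31 with Ythdf1 (adjusted p = 0.000105) and by 1.49 ± 0.30 with Ythdf2 (adjusted p = 0.00461). Zfp407, with 23 finger matches, had 11.9 and 12.9 CPM in the Ythdf1 IPs, against 1.47 and 1.37 CPM in the inputs, a difference of 3.13 ± 0.38 (adjusted p = 0.000105). The other 2 of the 8 largest rises were Zfp324, at 2.60 ± 0.42, and Zfp239, at 2.54 ± 0.46, beside Zfp521, which is described with the neural genes.

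Among the 13 genes that were lower in the Ythdf1 IP, Zfp326 fell furthest. It encodes a subunit of the DBIRD complex, which couples transcript elongation to splicing, and has a single finger match. It had 0.955 and 0.690 CPM in the Ythdf1 IPs and 5.94 and 3.0003 CPM in the Ythdf2 IPs, against 3.53 and 12.9 CPM in the inputs. The Ythdf1 IPs lay below both inputs, while the Ythdf2 IPs overlapped them. The log2 fold change was -3.30 ± 0.58 (adjusted p = 0.000951) for Ythdf1 and -0.87 ± 0.51 (adjusted p = 0.282) for Ythdf2. Gm43817 overlaps this gene on the same strand.

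Zfp580, a short gene with 3 finger matches, was lower with both antibodies. It had 3.27 and 2.85 CPM in the Ythdf1 IPs and 2.65 and 1.92 CPM in the Ythdf2 IPs, against 17.3 and 10.2 CPM in the inputs, with no overlap. The log2 fold changes were -2.17 ± 0.40 (adjusted p = 0.00129) and -2.59 ± 0.41 (adjusted p = 0.00101), and Ccdc106 overlaps it on the same strand. Zfp945, a KRAB gene with 18 finger matches, had 1.62 and 0.777 CPM in the Ythdf1 IPs and 2.08 and 2.58 CPM in the Ythdf2 IPs, against 5.35 and 8.16 CPM in the inputs. It fell by 2.48 ± 0.45 and 1.54 ± 0.43 on the log2 scale (adjusted p = 0.00113 and 0.028), and its Ythdf2 call was lost under 5 of 17 alternatives. The remaining named falls with Ythdf1 were Zfp946 (-2.86 ± 1.02, with 7 and 3 counts in the IPs), Zfp950 (-2.06), Zfp9 (-1.94), Zfp830 (-1.54) and Zfp91 (-1.43). The Zfp946 call was lost under 10 of 17 alternatives, and without retina input replicate 2 its fold change was -1.01 (adjusted p = 0.554). Without that library Zfp9 had -0.94 (adjusted p = 0.235), and its call was lost under 4 of 17.

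**Figure D2:**
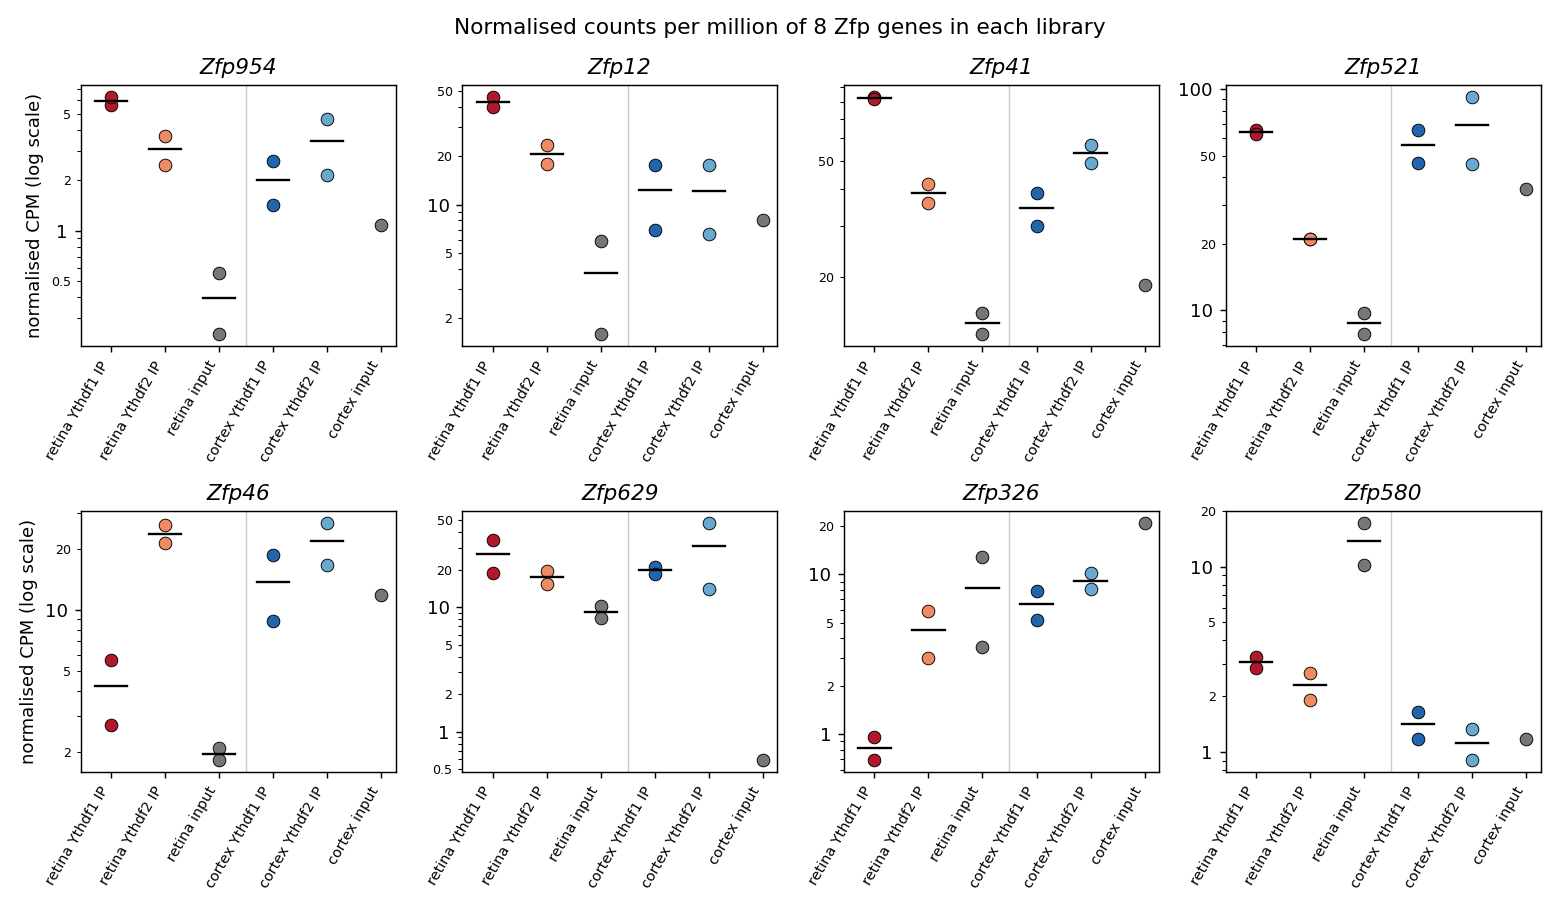
Normalised CPM (log scale) of 8 Zfp genes in each library, with IPs to the left of the input of their tissue. Points are libraries and lines are means of 2. Zfp954, Zfp12, Zfp41 and Zfp521 lie above both inputs in every retina IP library, Zfp46 is highest in the retina Ythdf2 IPs, Zfp629 has 0.594 CPM in the cortex input, and Zfp580 is lower in every retina IP library.

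The count of higher genes was 48 without retina Ythdf1 IP replicate 1 and 48 without replicate 2, and the count of lower genes was 4 and 5, 36 without retina input replicate 1 and 20 without cortex Ythdf1 IP replicate 1. With all 12 libraries it was 24 higher and 2 lower. Summed endothelial markers, 4 of 4 found, were also higher, with 1184 and 1218 CPM of protein-coding counts for Ythdf1 IP and 726 and 754 CPM for Ythdf2 IP, against 247 and 251 CPM for input. Pecam1 and Tie1 of that list were at 0 in 3 of those 4 IP libraries, and Tie1 was at 0 in both inputs. Summed microglia markers, 4 of 4 found, had 26.9 and 30.4 CPM for Ythdf1 IP and 29.95 and 49.9 CPM for Ythdf2 IP, against 20.8 and 11.7 CPM for input. Trem2 of that list was at 0 in both Ythdf1 IPs, and C1qa and Trem2 in 1 input. The 4 dividing-cell markers summed to 529 and 536 CPM for Ythdf1 IP and 640 and 669 CPM for Ythdf2 IP, with none at 0. For retina input replicates 1 and 2 they summed to 526 and 1136 CPM. Their part in the result was not tested.

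The retina Ythdf2 IP called 26 Zfp genes higher and 10 lower than input, against 6.63% higher and 8.5% lower over all genes tested. As percentages the members gave 9.70% and 3.73%, and protein-coding genes with at least 500 counts 10.7% and 10.5%. The members' share called higher is therefore near that of the protein-coding genes, and their share called lower is below it. The members' median log2 fold change was 0.25, against 0.16.

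Zfp46, a KRAB gene at chr4:136284683-136293942, had the largest rise with Ythdf2. It had 26.1 and 21.4 CPM in the Ythdf2 IPs and 5.69 and 2.72 CPM in the Ythdf1 IPs, against 1.82 and 2.09 CPM in the inputs. All IP libraries exceeded both inputs, and the Ythdf2 IPs exceeded the Ythdf1 IPs. The log2 fold change over input was 3.60 ± 0.47 (adjusted p = 0.000232) for Ythdf2 and 1.11 ± 0.44 (adjusted p = 0.0735) for Ythdf1. After Zfp974, Zfp954 and Zfp12 followed Zfp689 with 2.23 ± 0.43, Zfp438 with 1.92 ± 0.50, Zfp775 with 1.83 ± 0.38 and Zfp383 with 1.81 ± 0.51. The adjusted p was 0.0033, 0.0184, 0.00588 and 0.0289 in that order. These calls were lost under 1, 4, 2 and 4 of 17 alternatives.

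Zfp229, a KRAB gene on chromosome 17, had the largest called fall with Ythdf2. It had 0.173 and 0.180 CPM in the Ythdf2 IPs and 0.955 and 1.21 CPM in the Ythdf1 IPs, against 0.634 and 1.77 CPM in the inputs. The Ythdf2 level is 3 counts in each library, and the Ythdf1 IPs overlapped the inputs. The log2 fold change was -2.74 ± 0.70 (adjusted p = 0.0175) for Ythdf2 and -0.15 ± 0.54 (adjusted p = 0.891) for Ythdf1. The Ythdf2 call was lost without Ythdf2 IP replicate 1 (adjusted p = 0.126), without replicate 2 (adjusted p = 0.114) and without retina input replicate 2 (-1.83, adjusted p = 0.104). Zfp101 (-2.27 ± 0.53), Zfp830 (-2.07 ± 0.41), Zfp143 (-1.57 ± 0.46), an activator of many promoters, and Zfp1 (-1.36 ± 0.40) were lower as well, as was Zfp36, given below. The Zfp143 call was lost under 9 of 17 alternatives and the Zfp1 call under 7. Without retina input replicate 2, Zfp143 had -0.78 (adjusted p = 0.226) and Zfp101 -1.44 (adjusted p = 0.0603).

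The count of higher genes was 17 without either retina Ythdf1 IP replicate, 5 and 6 without Ythdf2 IP replicates 1 and 2, and 17 and 58 without retina input replicates 1 and 2. The count of lower genes was 2 without either Ythdf2 IP replicate and 23 without retina input replicate 1, and the counts were 65 higher and 4 lower with protein-coding totals as the scale and 2 and 1 with all 12 libraries.

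Compared directly, 11 Zfp genes were higher in the retina Ythdf1 IP than in the retina Ythdf2 IP and 4 were lower, against 2.34% and 4.35% of all genes tested. Members were called higher in 4.10% and lower in 1.49%, against 3.50% and 6.31% of protein-coding genes with at least 500 counts, so that the share called higher is near the background. The members' median difference was 0.49 on the log2 scale, against 0.14 for protein-coding genes with at least 500 counts. Higher were Zfp229 (2.59 ± 0.71), Zfp407 (2.20 ± 0.36), Zfp213 (1.82 ± 0.40), Zfp521 (1.61 ± 0.36) and Zfp628 (1.60 ± 0.38), and also, with smaller differences, Zfp574, Zfp647, Zfp865, Zfp668, Zfp41 and Zfp513.

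Zfp407 had 11.9 and 12.9 CPM in the Ythdf1 IPs, against 3.29 and 2.10 CPM in the Ythdf2 IPs (adjusted p = 0.00402). Zfp213 had 7.20 and 8.15 CPM in the Ythdf1 IPs, against 2.48 and 1.86 CPM in the Ythdf2 IPs (adjusted p = 0.016). Neither gene's groups overlapped. Lower in the Ythdf1 IP were Zfp46 (-2.49 ± 0.44, adjusted p = 0.00537), Zfp326 (-2.43 ± 0.58), Zfp367 (-1.97 ± 0.44) and Zfp706 (-1.48 ± 0.37).

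Zfp367 had 2.46 and 3.71 CPM in the Ythdf1 IPs, against 11.6 and 12.5 CPM in the Ythdf2 IPs and 3.89 and 11.1 CPM in the inputs. Zfp706, a short protein with a single finger match, had 8.92 and 8.80 CPM in the Ythdf1 IPs, against 24.0 and 25.4 CPM in the Ythdf2 IPs. In both genes every Ythdf1 IP library lay below both Ythdf2 IP libraries.

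**Figure D3:**
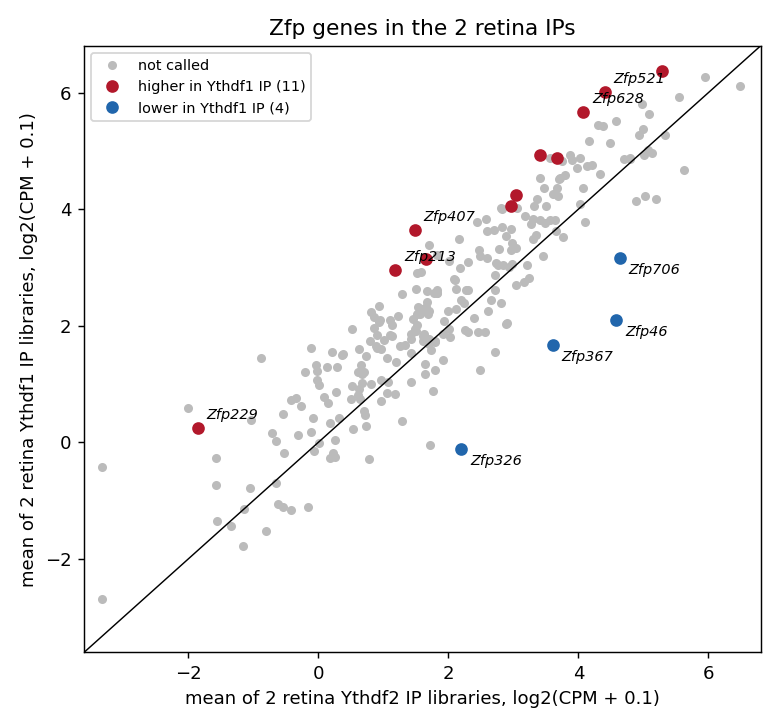
Mean level of each of the 268 Zfp genes in the 2 retina Ythdf1 IPs (vertical) against the 2 retina Ythdf2 IPs (horizontal), as log2(CPM + 0.1), with the line of equality. Red marks the 11 genes called higher and blue the 4 called lower in the Ythdf1 IP, and Zfp46, Zfp326, Zfp367 and Zfp706 lie below the line.

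These 15 calls depended on single libraries. The count of higher genes was 0 without either retina Ythdf1 IP replicate, 1 and 0 without Ythdf2 IP replicates 1 and 2, 6 without cortex Ythdf1 IP replicate 1 and 33 without either retina input. The count of lower genes was 0, 0, 0 and 1 without the 4 retina IP libraries in that order and 7 without either retina input, and both counts were 0 with all 12 libraries.

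Grouped by role, 7 of the 12 genes of the neural development list were called higher in the retina Ythdf1 IP and 4 in the retina Ythdf2 IP. In either IP, 0 were called lower. The shares called higher were 15.3% and 6.63% over all genes tested, and 33.2% and 9.70% over all members. They were 24.2% and 10.7% over protein-coding genes with at least 500 counts. The list was chosen with earlier results of these data known. The median log2 fold change of the list was 0.95 and 0.36, against 0.81 and 0.25 over all members. Zfp521, a regulator of neural differentiation, had 65.7 and 63.1 CPM in the Ythdf1 IPs and 21.1 and 21.0 CPM in the Ythdf2 IPs, against 7.81 and 9.69 CPM in the inputs. The groups were fully apart, at 2.88 ± 0.38 (adjusted p = 0.000174) and 1.27 ± 0.36 (adjusted p = 0.0298).

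Zfp423, known for its role in cerebellar development, had 30.3 and 27.2 CPM in the Ythdf1 IPs, against 15.4 and 9.53 CPM in the inputs (1.204 ± 0.33, adjusted p = 0.0132). Zfp536, a repressor of neuronal differentiation, had 29.8 and 28.4 CPM in the Ythdf1 IPs and 27.2 and 24.9 CPM in the Ythdf2 IPs, against 8.92 and 15.3 CPM in the inputs. Neither gene's Ythdf1 IPs overlapped the inputs. The Zfp536 differences were 1.26 ± 0.35 and 1.10 ± 0.35, with adjusted p = 0.0142 and 0.0474.

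Zfp219 had 31.98 and 28.7 CPM in the Ythdf1 IPs and 32.1 and 31.9 CPM in the Ythdf2 IPs, against 16.9 and 12.9 CPM in the inputs, and rose by 1.03 ± 0.29 and 1.10 ± 0.29. It overlaps Arhgef40 and Tmem253 on the opposite strand, and whether counting used strand is not given in the sources used here. Zfp335, Zfp503, a gene of striatal development, and Zfp365, which binds Disc1, were the other members of the list called higher with Ythdf1. In cortex 1 of the 12 was called higher with Ythdf1 and 2 were with Ythdf2. The shares were 1.76% and 2.88% over all genes tested, and 2.99% and 7.46% over all members.

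Of the 11 genes listed for RNA, ribosome and ubiquitin functions, 1 was called higher and 3 lower in the retina Ythdf1 IP, and 1 higher and 2 lower in the retina Ythdf2 IP. Over all genes tested the shares were 15.3% and 15.2% with Ythdf1 and 6.63% and 8.5% with Ythdf2. Over all members they were 33.2% and 4.85% with Ythdf1 and 9.70% and 3.73% with Ythdf2. With each antibody 5 of the 11 had a fold change above 0, and the median log2 fold change was -0.63 and -0.65. Lower with Ythdf1 were Zfp326, Zfp830 and Zfp91, an E3 ubiquitin ligase. Zfp91 had 15.5 and 19.3 CPM in the Ythdf1 IPs, against 36.4 and 57.8 CPM in the inputs, a difference of -1.43 ± 0.32 (adjusted p = 0.0044).

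Zfp36 encodes tristetraprolin, which binds AU-rich elements and promotes mRNA decay, and its zinc fingers are not of the C2H2 kind. It had 2.83 and 2.34 CPM in the retina Ythdf2 IPs and 2.97 and 3.62 CPM in the Ythdf1 IPs, against 8.17 and 8.80 CPM in the inputs. All IP libraries lay below both inputs, at -1.71 ± 0.52 for Ythdf2 (adjusted p = 0.0392) and -1.36 ± 0.51 for Ythdf1 (adjusted p = 0.0546). The Ythdf2 call was lost under 8 of 17 alternatives, among them without any 1 of the 6 retina libraries (adjusted p from 0.0589 to 0.214). Zfp217 was the gene of this list called higher. It had 9.88 and 9.62 CPM in the Ythdf1 IPs and 8.72 and 6.72 CPM in the Ythdf2 IPs, against 3.09 and 2.97 CPM in the inputs. The differences were 1.68 ± 0.36 (adjusted p = 0.00332) and 1.35 ± 0.36 (adjusted p = 0.0228).

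Of the chromatin and imprinting list of 8 genes, 7 were tested and 6 of these are members. None was called in either retina IP by edgeR, with 2 at an unadjusted p under 0.05 for Ythdf1 and 1 for Ythdf2. Zfp57, which protects methylation at imprinted regions, had 2.83 and 5.57 CPM in the retina Ythdf1 IPs and 1.39 and 2.28 CPM in the Ythdf2 IPs, against 3.21 and 3.14 CPM in the inputs. Zfp568, a KRAB repressor needed in the embryo, had 9.62 and 18.4 CPM in the Ythdf1 IPs, against 2.97 and 6.47 CPM in the inputs (1.57 ± 0.58, adjusted p = 0.0546).

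The genes of the KRAB co-repressor pathway, which are not members, went both ways in the retina Ythdf1 IP, with 3 of 15 called higher (20%) and 6 lower (40%). Over all genes tested, 15.3% were called higher and 15.2% lower with Ythdf1, and 6.63% and 8.5% with Ythdf2. Setdb1 (1.28 ± 0.28), Trim28 (1.21 ± 0.33) and the histone chaperone Daxx were higher. Lower were Cbx3 (-3.24) and Cbx1 (-2.71), which encode heterochromatin proteins that bind methylated histone H3, and Atrx (-2.65), Cbx5, Hdac2 and Smarcad1. In the retina Ythdf2 IP 0 of the 15 were called higher and 1, Hdac2, lower. Other zinc finger genes by symbol, Zkscan and Zscan with digits, gave 7 of 20 called higher and 0 lower with Ythdf1 and 1 and 0 with Ythdf2. The 7 are 35%, near the 33.2% of the members. The median log2 fold change was 1.16 with Ythdf1 and 0.39 with Ythdf2. Zkscan6, Zkscan5 and Zkscan17 had the smallest p.

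Enrichment in the retina Ythdf1 IP moved with base composition, among members and among other genes. The GC content of the members' transcripts was lower than elsewhere, with a median of 46.9% against 50.5% for the other protein-coding genes with at least 500 counts. Of the 71 members under 42% GC, 7.04% were called higher in the retina Ythdf1 IP, against 1.67% of the other genes. The shares were 22.2% against 10.6% from 42% to 47%, 44.4% against 24.0% from 47% to 52%, and 59.2% against 35.7% from 52% up. In each of these 4 classes the members' median log2 fold change was above that of the other genes, at -0.19 against -1.26, 0.65 against -0.36, 1.27 against 0.24 and 1.16 against 0.67. With Ythdf2 in retina this did not hold in the lowest class, where the medians were -0.51 and -0.08 and 1.41% of members were called higher, against 3.79% of the other genes. From 42% to 47% GC the Ythdf2 shares were 3.17% against 9.13%, from 47% to 52% 22.2% against 11.8%, and from 52% up 12.7% against 12.4%. Across the 268 members Spearman's rank correlation between GC and log2 fold change was 0.38 for retina Ythdf1 and 0.30 for retina Ythdf2, and -0.08 for cortex Ythdf1 and -0.14 for cortex Ythdf2. Across the other protein-coding genes it was 0.38, 0.07, 0.41 and 0.29 in the same comparisons. These are correlations across genes that share libraries and, in part, sequence.

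Members also have few and long exons, with a median of 5 exons and a longest exon of 2810.5 bases, against 10 and 1489 bases in the other genes. By transcript length the shares called higher in the retina Ythdf1 IP were 23.8% against 7.28% under 2 kb, 29.2% against 18.9% from 2 to 3 kb, 27.9% against 28.5% from 3 to 4.5 kb and 46.2% against 36.8% from 4.5 kb. The shortest class holds 21 members. With Ythdf1, only in the class from 3 to 4.5 kb did the members not have the larger share. With Ythdf2 in retina they had it only in the shortest class. In the same order, those shares were 4.76% against 2.58%, 3.08% against 6.67%, 9.62% against 11.7% and 16.7% against 19.3%.

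**Figure D4:**
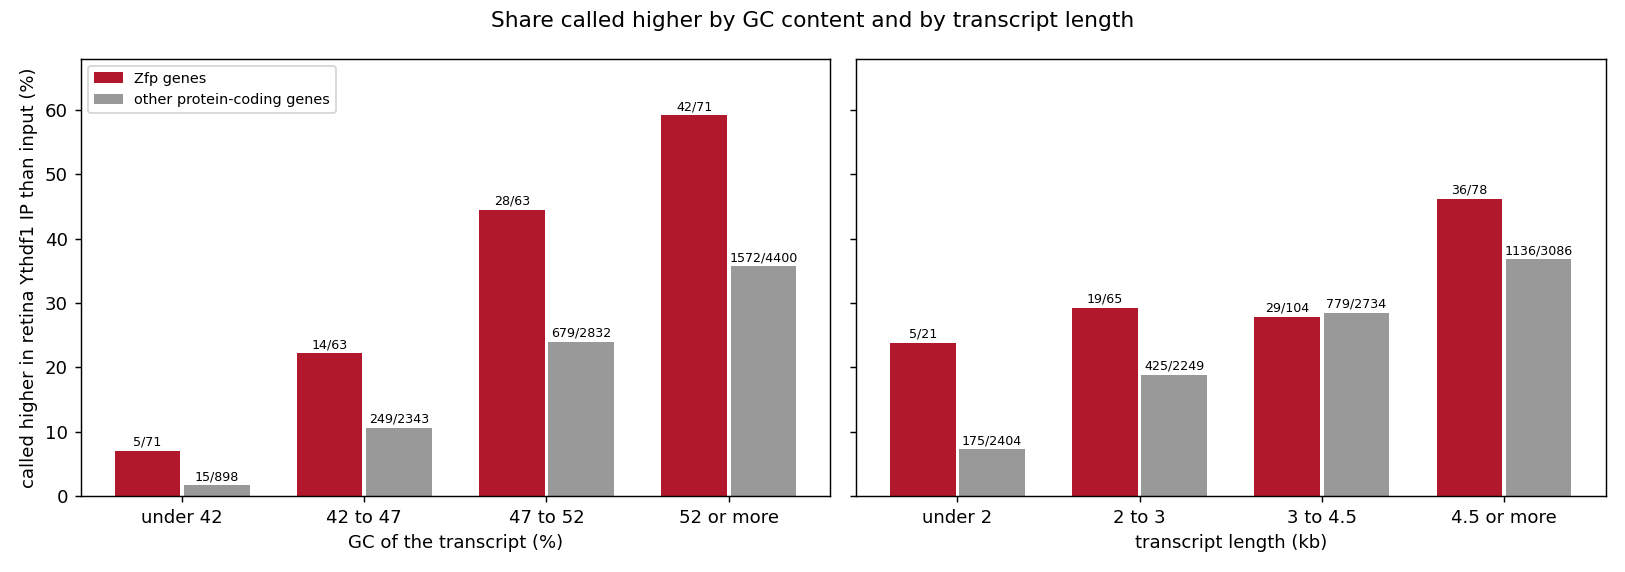
Percent of genes called higher in the retina Ythdf1 IP than in input, for the Zfp genes (red) and other protein-coding genes with at least 500 counts (grey), by GC content and by transcript length, with the counts over the bars. The members' share goes from 7.04% in the lowest GC class to 59.2% in the highest.

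Of the 113 members with a KRAB match, 26 (23.0%) were called higher in the retina Ythdf1 IP, against 63 of 155 (40.6%) without one, while the medians were 0.79 and 0.86. The match is strict and misses some KRAB genes, so the 155 cannot be taken to lack the domain. Base composition differs along the genome too. The 27 members on chromosome 17, 19 of them with a KRAB match, had a median GC of 40.0%, against 48.9% for the 73 on chromosome 7, 36 of them with a match. With Ythdf2 in retina, 0 of the 27 on chromosome 17 were called higher and 4 lower, with a median of -0.71. On chromosome 7, 5 of the 73 were higher and 3 lower, with a median of 0.56. Over all genes tested, 6.63% were called higher and 8.5% lower. With Ythdf1 in retina, 6 were higher and 2 lower on chromosome 17, and 29 and 1 on chromosome 7, with medians of 0.28 and 1.05. For Ythdf1 the shares over all genes tested were 15.3% higher and 15.2% lower. In cortex the medians on chromosomes 17 and 7 were close, at 0.40 and 0.43 with Ythdf1 and 0.88 and 0.92 with Ythdf2. The number of fingers moved with enrichment in cortex, as did exon and transcript length. Across members the rank correlation with the cortex Ythdf2 fold change was 0.36 for finger matches, 0.34 for the longest exon and 0.30 for transcript length. The 61 members with 15 or more finger matches had a median log2 fold change of 1.15 in the cortex Ythdf2 IP, with 59 above 0, against 0.28 for the 41 members with 0 to 4 matches, 23 of them above 0. None of these splits was tested.

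In the cortex, 8 Zfp genes were called higher in the Ythdf1 IP than in the input and 4 lower, against 1.76% and 2.26% of all genes tested. As percentages the members gave 2.99% and 1.49%, and protein-coding genes with at least 500 counts 2.32% and 3.25%, so that the share called higher is near theirs. The members' median log2 fold change was 0.29, against -0.02 for protein-coding genes with at least 500 counts. In the cortex Ythdf2 IP 20 were higher and 3 lower, against 2.88% and 5.52% of all genes tested. These are 7.46% and 1.12% of the members, against 4.19% and 8.09% of those protein-coding genes, with a median of 0.72 against -0.01. Of the 268 members, 211 had a fold change above 0 with Ythdf2 and 173 with Ythdf1. Both comparisons share the single cortex input.

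Zfp629, with 19 finger matches at chr7:127607031-127615797, had the largest rise of any member called. It had 21.1 and 18.3 CPM in the cortex Ythdf1 IPs and 14.1 and 47.7 CPM in the Ythdf2 IPs, against 0.594 CPM, or 47 counts, in the cortex input. The IP libraries lay far above the input. The log2 fold change was 5.05 ± 0.76 (adjusted p = 0.0046) for Ythdf1 and 5.69 ± 0.78 (adjusted p = 0.00165) for Ythdf2. With the library labelled cortex input replicate 1 included, they were 2.77 (adjusted p = 0.200443) and 3.42 (adjusted p = 0.0974).

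Zfp628 had 13.4 and 6.70 CPM in the cortex Ythdf1 IPs and 10.9 and 16.9 CPM in the Ythdf2 IPs, against 1.34 CPM in the input. Zfp446 had 6.15 and 4.34 CPM in the Ythdf1 IPs and 6.20 and 10.7 CPM in the Ythdf2 IPs, against 0.948 CPM in the input. Both genes were above the input in all 4 IP libraries. Zfp628 rose by 2.91 ± 0.53 and 3.37 ± 0.54, and Zfp446 by 2.47 ± 0.50 and 3.16 ± 0.52.

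With Ythdf1, Zfp219 (2.15 ± 0.39), Zfp239, Zfp697, Zfp574 and Zfp319 were also higher. With Ythdf2, Zfp229 (2.54 ± 0.67), Zfp697, Zfp28, Zfp574 and Zfp219 followed, and 16.0% of the windows of Zfp28 are shared with other genes. The falls with Ythdf1 were Zfp839 (-2.55 ± 0.49), Zfp91 (-1.97 ± 0.37), Zfp407 (-1.88 ± 0.39) and Zfp706 (-1.84 ± 0.43), and those with Ythdf2 were Zfp511 (-2.06 ± 0.60), Zfp91 (-1.60) and Zfp706 (-1.59). Of these smaller calls, those lost under at least 7 of 16 alternatives were Zfp239 (12), Zfp697 (8), Zfp574 (8), Zfp319 (7) and Zfp706 (7) with Ythdf1 and Zfp511 (11), Zfp28 (10) and Zfp706 (7) with Ythdf2.

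Between the antibodies in cortex, 0 members were called higher in the Ythdf1 IP and 1, Zfp407, lower, against 0.664% and 0.0326% of all genes tested. The members' median difference was -0.37 on the log2 scale, against -0.04 for protein-coding genes with at least 500 counts. It was above 0 for 58 of the 268 members (21.6%), against 47.1% of those genes. In retina the members' median difference was 0.49. Zfp407 had 5.90 and 4.22 CPM in the cortex Ythdf1 IPs, against 23.7 and 38.4 CPM in the Ythdf2 IPs and 18.7 CPM in the input. The antibodies did not overlap (-2.61 ± 0.35, adjusted p = 0.00362). The difference was not called without cortex Ythdf1 IP replicate 2 (adjusted p = 0.169), without cortex Ythdf2 IP replicate 2 (adjusted p = 0.0617) or with all 12 libraries (adjusted p = 1), and without cortex Ythdf1 IP replicate 1 it was 1 of 4 members called. DESeq2 called 3 members lower.

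The cortex counts moved widely with single libraries. With Ythdf1 the count of higher genes was 1 and 5 without Ythdf1 IP replicates 1 and 2, 4 without any 1 of the 4 retina IP libraries and 22 without either retina input, and that of lower genes 0 without Ythdf1 IP replicate 2 and 10 without either retina input. With Ythdf2 the higher count was 5 without Ythdf2 IP replicate 2, 8 and 9 without the retina Ythdf1 IPs, 9 without either retina Ythdf2 IP and 43 without either retina input, and the lower count was 1 and 0 without Ythdf2 IP replicates 1 and 2, 1 without any retina IP library, and 9 and 8 without the retina inputs. With all 12 libraries every cortex count was 0. Protein-coding genes took 17.4% and 10.4% of counts for cortex Ythdf1 IP and 22.4% and 38.6% for Ythdf2 IP, against 41.1% for input. The 4 dividing-cell markers summed to 4309 and 2463 CPM of protein-coding counts for Ythdf1 IP and 2693 and 2388 CPM for Ythdf2 IP, against 1951 CPM for input, with none at 0. The 4 microglia markers summed to 37.6 to 53.3 CPM in the cortex IPs, against 18.6 in the input, with Trem2 at 0 in 1 IP library. The 4 erythroid markers summed to 1438 and 3457 CPM for Ythdf1 IP and 949 and 853 CPM for Ythdf2 IP, against 632 CPM for input, with none at 0. Their part in the result was not tested.

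Retina and cortex share no library, but their calls came from the same fit with a shared estimate of spread. The lists of calls are therefore not independent, and the cortex counts moved when retina libraries were left out, as given above. All 8 genes called higher in the cortex Ythdf1 IP were among the 89 called higher in the retina Ythdf1 IP, which is 100% of the cortex calls and 8.99% of the retina calls. These were Zfp219, Zfp239, Zfp319, Zfp446, Zfp574, Zfp628, Zfp629 and Zfp697. Lower in both were Zfp706 and Zfp91, 15.4% of the retina and 50% of the cortex calls. With Ythdf2, 4 genes were higher in both, Zfp219, Zfp251, Zfp282 and Zfp41, 15.4% of the 26 retina and 20% of the 20 cortex calls, and none was lower in both. Over all annotated genes tested, 50.6% of the cortex and 5.84% of the retina Ythdf1 calls higher were shared, and 35.0% and 15.2% of the Ythdf2 calls higher. Of the calls lower, 65.4% of the cortex and 9.75% of the retina calls were shared with Ythdf1, and 47.9% and 31.1% with Ythdf2. Over all 268 members the sign was the same in both tissues for 163 (60.8%) with Ythdf1 and 174 (64.9%) with Ythdf2, with a rank correlation of the fold changes of 0.17 and 0.20. These overlaps were not tested.

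The difference in enrichment between the tissues, retina minus cortex, was called for 9 members with Ythdf1 (3.36%), against 3.78% of all genes tested, and for 2 with Ythdf2 (0.746%), against 0.86%. Both shares are near the background. Zfp407 had the largest with Ythdf1, at 5.003 ± 0.54 on the log2 scale (adjusted p = 0.00081). It was enriched in the retina Ythdf1 IP, by 3.13, and depleted in the cortex Ythdf1 IP, by -1.88. Its levels were 11.9 and 12.9 CPM in retina Ythdf1 IPs over 1.47 and 1.37 CPM in retina inputs, and 5.90 and 4.22 CPM in cortex Ythdf1 IPs below 18.7 CPM in the cortex input. The cortex Ythdf1 call of Zfp407 was lost under 3 of 16 alternatives. Its fold change there was -2.23 and -1.66 without cortex Ythdf1 IP replicates 1 and 2. With all 12 libraries it was -1.02 (adjusted p = 0.588).

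Zfp229 had the largest difference with Ythdf2, at -5.28 ± 0.97 (adjusted p = 0.0214). It had 0.173 and 0.180 CPM in the retina Ythdf2 IPs, below 0.634 and 1.77 CPM in the retina inputs, and 4.17 and 7.32 CPM in the cortex Ythdf2 IPs, above 0.986 CPM in the cortex input. The other member called with Ythdf2 was Zfp629 (-4.77 ± 0.84, adjusted p = 0.0185), which was also called with Ythdf1 (-3.503 ± 0.81, adjusted p = 0.0307) and whose enrichment was larger in cortex.

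**Figure D5:**
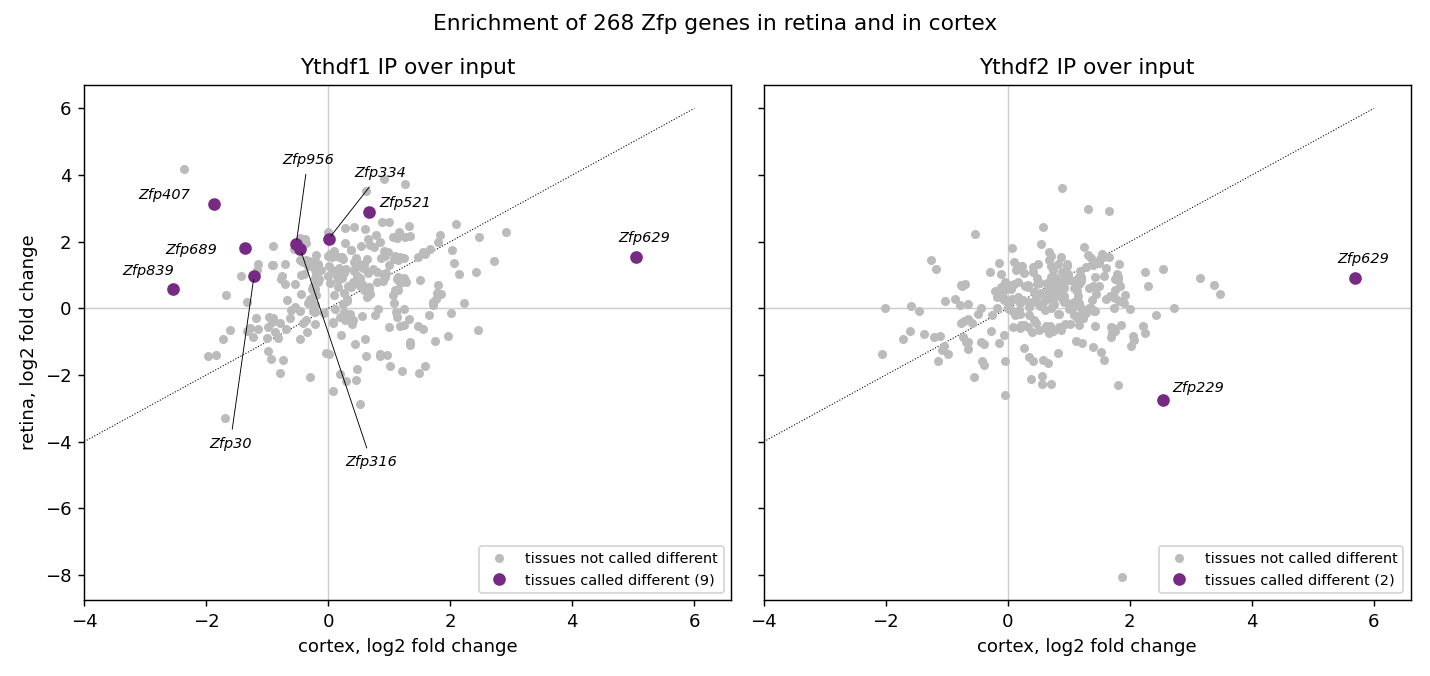
Log2 fold change of IP over input of the 268 Zfp genes in retina (vertical) and in cortex (horizontal), for Ythdf1 and Ythdf2. Purple marks the 9 and 2 genes whose enrichment was called different between tissues, and dotted lines mark equal values; Zfp407 lies at 3.13 in retina and -1.88 in cortex, and the lowest grey point is Zfp51, with 0 counts in both retina Ythdf2 IPs.

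The count with Ythdf1 was 1 without cortex Ythdf1 IP replicate 2, 2 and 1 without retina Ythdf1 IP replicates 1 and 2, 4 without either retina Ythdf2 IP and 37 without either retina input. With Ythdf2 it was 1 without cortex Ythdf2 IP replicate 2, 0 without either retina Ythdf2 IP, and 19 and 14 without retina input replicates 1 and 2. Both counts were 0 with all 12 libraries.

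Across all comparisons, 65 calls in 39 genes were named by the rule. Of these, 12 passed the threshold under every alternative tried, and none changed direction under any. The 12 were the retina Ythdf1 rises of Zfp954, Zfp974, Zfp12, Zfp407, Zfp521, Zfp324 and Zfp239, the retina Ythdf1 falls of Zfp580 and Zfp945, and in the retina Ythdf2 IP the rises of Zfp46 and Zfp974 and the fall of Zfp580.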

How the data were processed

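RIP-seq was measured in 12 libraries in 6 groups of 2. Per the labels' protocols, RNA was recovered from dissociated tissue with the EZ-Magna kit, and each stranded TruSeq library started from 100 ng. Per the submitters' processing notes, STAR 2.5, HTSeq and GRCm38 were used, while the sources used here do not give the annotation, the filters or the use of strand in counting. The authors deposited raw counts per gene and FPKM. After library scaling, both tables agree for 100% of genes over 200 counts in each library (within 5%), and FPKM gene lengths are not stated.

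All tests used the counts. Of 52550 gene IDs, 52403 were matched to GENCODE M21. Genes with enough counts in at least 2 libraries were kept (the rule of filterByExpr, minimum count 10, minimum total 15), which left 18380. A robust quasi-likelihood fit in edgeR 4.0.16 under R 4.3.3, with TMM scaling and 1 mean per group, was made to 11 libraries, with Benjamini-Hochberg adjustment over all genes and calls at an adjusted p under 0.05, two-sided. The SE is the log2 fold change over the square root of F. The script was tested on simulated data. DESeq2 1.42.0 was an alternative. Genes were named from the calls where they changed by 2-fold or more in the same direction in every replicate comparison, as the 8 largest rises and falls of each IP against input, 5 and 5 between antibodies. Role lists were described with the smallest p. Members, lists and tests were chosen with earlier results of these data known. RefSeq proteins were not used: protein features were read from translated GENCODE coding sequence.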

Additional observations from a re-analysis of the deposited data

Results flagged for a closer look

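A difference in enrichment between retina and cortex, tested as an interaction in edgeR and given as retina minus cortex on the log2 scale, was past the threshold for 9 Zfp genes with Ythdf1, 3.36% of the members against 3.78% of all genes tested, and for 2 with Ythdf2, 0.746% against 0.86%. With Ythdf1 it was 5.003 for Zfp407, 3.17 for Zfp689, 3.12 for Zfp839, 2.47 for Zfp956, 2.22 for Zfp316, 2.22 for Zfp521, 2.19 for Zfp30 and 2.08 for Zfp334, where enrichment was larger in retina, and -3.503 for Zfp629, where it was larger in cortex. With Ythdf2 the difference was -5.28 for Zfp229 and -4.77 for Zfp629. Tissue and age differ together, and the cortex side rests on a single input library.

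Within the tissues, Zfp689 had 5.66 and 8.33 CPM in the retina Ythdf1 IPs, against 2.54 and 1.45 CPM in the retina inputs, and 4.15 and 2.23 CPM in the cortex Ythdf1 IPs, against 8.38 CPM in the cortex input. Zfp839 had 4.003 and 3.97 CPM in the retina Ythdf1 IPs, against 2.54 and 2.81 CPM in the retina inputs, and 1.62 and 0.868 CPM in the cortex Ythdf1 IPs, against 7.52 CPM in the cortex input. In both genes the retina IPs lay above and the cortex IPs below the input of their tissue. Zfp334 had 22.5 and 23.3 CPM in the retina Ythdf1 IPs, against 4.60 and 6.19 CPM in the retina inputs, and 28.2 and 16.6 CPM in the cortex Ythdf1 IPs around 22.3 CPM in the cortex input.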

How the results depend on the processing

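Counts are given as higher and lower. With all 12 libraries they were 24 and 2 for retina Ythdf1, 2 and 1 for retina Ythdf2, and 0 and 0 for retina Ythdf1 against Ythdf2, cortex Ythdf1, cortex Ythdf2 and the cortex antibodies, with 0 and 0 tissue differences for Ythdf1 and Ythdf2; 53 of 65 named calls were lost. With protein-coding totals there were 8 lower for retina Ythdf1, 65 and 4 for retina Ythdf2, 7 higher for the retina antibodies, 33 and 1 for cortex Ythdf2 and 5 tissue differences for Ythdf2; this scale moved the median of all genes by 0.294 for retina Ythdf2, 0.152 for cortex Ythdf1, 0.313 for cortex Ythdf2 and -0.149 for the cortex antibodies. DESeq2 gave 22 higher for the retina antibodies, 21 higher for cortex Ythdf1, 39 and 5 for cortex Ythdf2, 3 lower for the cortex antibodies, and 21 and 13 tissue differences for Ythdf1 and Ythdf2, the median of all genes moving by -0.121 in the Ythdf1 difference. Without the filter there were 21 lower for retina Ythdf1, 18 lower for retina Ythdf2, 29 higher for the retina antibodies, 14 and 11 for cortex Ythdf1, 5 lower for cortex Ythdf2, 3 lower for the cortex antibodies, and 36 and 19 tissue differences. With the tissue alone 8 were lower for cortex Ythdf1.

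Leaving out each library gave these ranges. Retina Ythdf1 had 48 to 109 higher and 4 to 36 lower, and retina Ythdf2 5 to 58 and 2 to 23. The retina antibodies had 0 to 33 and 0 to 7, cortex Ythdf1 1 to 22 and 0 to 10, cortex Ythdf2 5 to 43 and 0 to 9, and the cortex antibodies 0 lower to 4. Tissue differences ranged from 1 to 37 for Ythdf1 and from 0 to 19 for Ythdf2. The causes were not tested. Without cortex input replicate 2 the cortex comparisons could not be fitted.

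Across genes, deviations of same-numbered libraries in 2 groups of a tissue had correlations of -0.0314, 0.0497, -0.0111 and -0.00667. Each group gives only 1 independent deviation and the cortex input gives none, so these values cannot show whether replicate numbers pair the libraries. With the replicate block there were 82 and 12 for retina Ythdf1, 26 and 8 for retina Ythdf2, 6 and 4 for the retina antibodies, 4 and 5 for cortex Ythdf1, 10 and 2 for cortex Ythdf2, 0 and 1 for the cortex antibodies and 5 tissue differences for Ythdf1. Taking symbols with letters after the digits (288 genes), or members with under 20% shared windows (chosen after seeing the data), left every count within 1.5 times. Few counts limit the lowest members: 3 had under 10 counts in both retina inputs. Taken singly, 27 were under 10 in retina input replicate 1 and 4 in replicate 2. In the retina Ythdf2 IPs 21 and 18 were under 10. Over both retina inputs, 228 of the 268 reached 50 counts.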
